A study of Mus musculus and Homo sapiens with 9 samples.

Results

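Sp1, Myc, Zbtb20, Maml1 and Bahcc1 are 5 mouse genes for transcription regulators, chosen from 21887 protein-coding genes because peaks of thymine DNA glycosylase (TDG) and of p53 both lay at or near them. A gene qualified when a p53 summit fell inside it, or was closer to one of its ends than to the end of any other protein-coding gene, and when a TDG summit also lay within 1 kb of one of its ends or a TDG peak overlapped that p53 peak. In all, 27 protein-coding genes (0.123%) met this rule, and the 5 are not its only transcription regulators, since Btg2 and Nfe2l2 met it too. The peak positions and every value measured at the same peaks were therefore used in the choice, or belong to it, and are given here as a description without a test.

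The study mapped both proteins by ChIP-seq, in which crosslinked chromatin is pulled down with an antibody and the recovered DNA is sequenced. Both libraries used here came from B16 mouse melanoma cells with the Tdg HA knockin genotype, that is, with an HA tag on the endogenous Tdg gene. One was made with the HA antibody and stands for TDG, and the other was made with the p53 antibody. Each is 1 library with no replicate, neither had a treatment in the labels, and the labels do not say whether the knock-in line is 1 clone. The other 7 of the 9 samples, which include input, IgG, the HA antibody in WT cells and the p53 antibody in Trp53 KO cells, were not analysed here, so whether a given peak needs the tag or p53 was not tested. Peak lists hold no RNA measurement, so the melanoma label was not checked against marker expression, and nothing below says how much of any gene was transcribed.

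TDG is a repair glycosylase that cuts mispaired thymine, and some but not all oxidised forms of methylcytosine, out of DNA. It is known to bind the coactivators CBP and p300. p53 is a transcription factor that binds DNA as a tetramer, at pairs of a short half-site, and is known for inducing cell cycle arrest and apoptosis genes after DNA damage. The 5 genes encode proteins that work at different steps of transcription. Sp1 is a zinc finger activator that binds GC boxes in promoters. Myc is a basic helix-loop-helix factor that pairs with Max and drives growth and ribosome production genes. Zbtb20 is a BTB-domain zinc finger repressor. Maml1 is a coactivator of the Notch pathway that joins the Notch intracellular domain and Rbpj on DNA. Bahcc1 carries a BAH domain, a chromatin-binding fold that in this protein recognises methylated histone H3 lysine 27.

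The TDG list held 3410 peaks, whose median enrichment was 5.74-fold, and the p53 list 126 peaks, whose median was 13.5-fold. Fold enrichment is the authors' value for a peak, its summit over the local background, and can be compared only within its own list. Reads at the summit and the local background were recovered from the deposited fold and p, and the 2 are on different scales. In the fold, summit reads are first multiplied by 0.924 (TDG) or 0.792 (p53), and a small constant is added to both sides. The median at the summit was 24 reads for TDG and 77.5 reads for p53. None of the peaks within 100 kb of the 5 genes lay in a region of high background, defined as at least 10 reads: their highest local background was 5 reads in the TDG list and 3 reads in the p53 list.

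The sequences under the TDG peaks are shown first, because 3 of the 5 genes have their promoter window under such a peak and the letters there can be read directly. Each is the RefSeq promoter window of 300 bases on GRCm38.p6 (the mm10 assembly), from 250 bases before the start to 50 after it, written 5′ to 3′ on the gene's strand. Capitals mark GC boxes (GGGCGG) and CCAAT boxes (CCAAT), searched on both strands.
Sp1 promoter, chr15:102406066-102406365, plus strand: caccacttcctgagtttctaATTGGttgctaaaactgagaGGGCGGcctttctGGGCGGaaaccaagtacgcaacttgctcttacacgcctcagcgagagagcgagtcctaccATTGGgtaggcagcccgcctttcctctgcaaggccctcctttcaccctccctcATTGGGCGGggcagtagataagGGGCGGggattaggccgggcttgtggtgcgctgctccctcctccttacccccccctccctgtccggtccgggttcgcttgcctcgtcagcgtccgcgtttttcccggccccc
Bahcc1 promoter, chr11:120232697-120232996, plus strand: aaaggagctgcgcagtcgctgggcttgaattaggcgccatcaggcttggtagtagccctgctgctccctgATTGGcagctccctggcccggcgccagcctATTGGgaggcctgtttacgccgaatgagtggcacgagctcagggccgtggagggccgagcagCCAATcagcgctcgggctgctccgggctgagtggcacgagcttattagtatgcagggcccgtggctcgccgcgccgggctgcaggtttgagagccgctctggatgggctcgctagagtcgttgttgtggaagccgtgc
Maml1 promoter, chr11:50292287-50292586, minus strand: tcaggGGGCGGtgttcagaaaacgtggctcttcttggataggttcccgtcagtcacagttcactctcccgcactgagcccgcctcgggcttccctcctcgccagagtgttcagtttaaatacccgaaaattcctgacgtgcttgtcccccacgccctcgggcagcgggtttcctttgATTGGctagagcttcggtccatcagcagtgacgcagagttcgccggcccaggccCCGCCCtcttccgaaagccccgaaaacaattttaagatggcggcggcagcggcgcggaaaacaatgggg
4932412D23Rik promoter at the lower-coordinate end of Zbtb20, chr16:42875538-42875837, minus strand: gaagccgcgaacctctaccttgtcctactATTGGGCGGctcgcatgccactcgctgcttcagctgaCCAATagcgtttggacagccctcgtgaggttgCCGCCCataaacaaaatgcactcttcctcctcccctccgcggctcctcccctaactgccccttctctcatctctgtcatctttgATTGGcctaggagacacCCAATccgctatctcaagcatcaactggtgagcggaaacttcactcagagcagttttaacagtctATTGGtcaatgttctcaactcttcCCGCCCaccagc

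The last of these belongs to the noncoding gene 4932412D23Rik, whose annotation overlaps the lower-coordinate end of Zbtb20, and is shown because the TDG peak there covered all 300 of its bases. A second 4932412D23Rik window (42875713 to 42876012) had 172 bases under the same TDG peak. The TDG peaks covered 251 bases of the Sp1 window, 284 bases of the Bahcc1 window and 233 bases of the Maml1 window. The TDG summit itself fell inside the window at Bahcc1, 164 bases before the start, and at Maml1, 75 bases before the start. The p53 peak reached into the Sp1 window only, over its first 127 bases. The window that RefSeq gives for Zbtb20 (chromosome 16, 43247034 to 43247333, plus strand) lay inside the gene and under no peak. Myc had no window in the promoter table.

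The windows under TDG differed in which boxes they held. The Sp1 window held 4 GC boxes and 3 CCAAT boxes, and 1 GC box shared bases with a CCAAT box. The Maml1 window held 2 GC boxes and 1 CCAAT box, the Bahcc1 window no GC box and 3 CCAAT boxes, and the 4932412D23Rik window 3 GC boxes and 5 CCAAT boxes, with 1 GC box sharing bases with a CCAAT box. The second 4932412D23Rik window held 5 GC boxes and 3 CCAAT boxes. Of the 1536 promoter windows of protein-coding genes that held a TDG summit, 83.6% held a GC box and 48.8% a CCAAT box, against 46.2% and 38.2% of all 21263 windows. The CpG count was 19 in the Sp1 window, 23 at Bahcc1, 24 at Maml1, 13 and 26 in the printed and the second window of 4932412D23Rik, and 3 in the Zbtb20 window under no peak. The median was 25 CpG in windows with a TDG summit (quartiles 20 and 31) and 11 in windows without one (quartiles 3 and 23). The Bahcc1 and Maml1 windows, which held a summit, lay between the quartiles of the windows with one. The Bahcc1 count also equalled the upper quartile of windows without a summit. The Sp1 window held no TDG summit, and its count lay between the quartiles of windows without one. It was just below the lower quartile of windows with a summit.

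None of the 4 printed windows held a match to the p53 half-site consensus, which is 10 bases long. Such a match was found in 9 of the 11 windows (81.8%) with a p53 summit inside them, against 7.37% of all promoter windows. None of the 5 genes was among these 11. The promoter windows of Sp1, Bahcc1, Maml1 and Zbtb20 held no p53 summit, and Myc had no window. The sequence under the p53 summits of the 5 genes was not read, so the printed windows do not show whether half-sites lie there.

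All 5 genes qualified through a TDG summit at a gene end, and at Sp1 and Bahcc1 a TDG peak also overlapped the p53 peak. Over all protein-coding genes such an overlap was found at 0.0548%, and TDG at an end together with an assigned p53 peak at 0.0959%. A TDG summit within 1 kb of an end was found at 12.3% of protein-coding genes, and a p53 summit inside the gene or nearest to its end at 0.512%. On the members' own chromosomes TDG at an end was more frequent, at 19.7% of genes on chromosome 11, 22.9% on chromosome 15 and 23.1% on chromosome 16. Both chose the members, so nothing is read from 5 of 5. The distance from the gene end to the TDG summit was 23 bases at Myc, 87 at Bahcc1, 562 at Sp1, 613 at Zbtb20 and 720 at Maml1, the largest of any gene that qualified by its end. The closest genes left out were Pdcl at 1026 bases and Cd81 at 1149 bases.

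**Figure D1:**
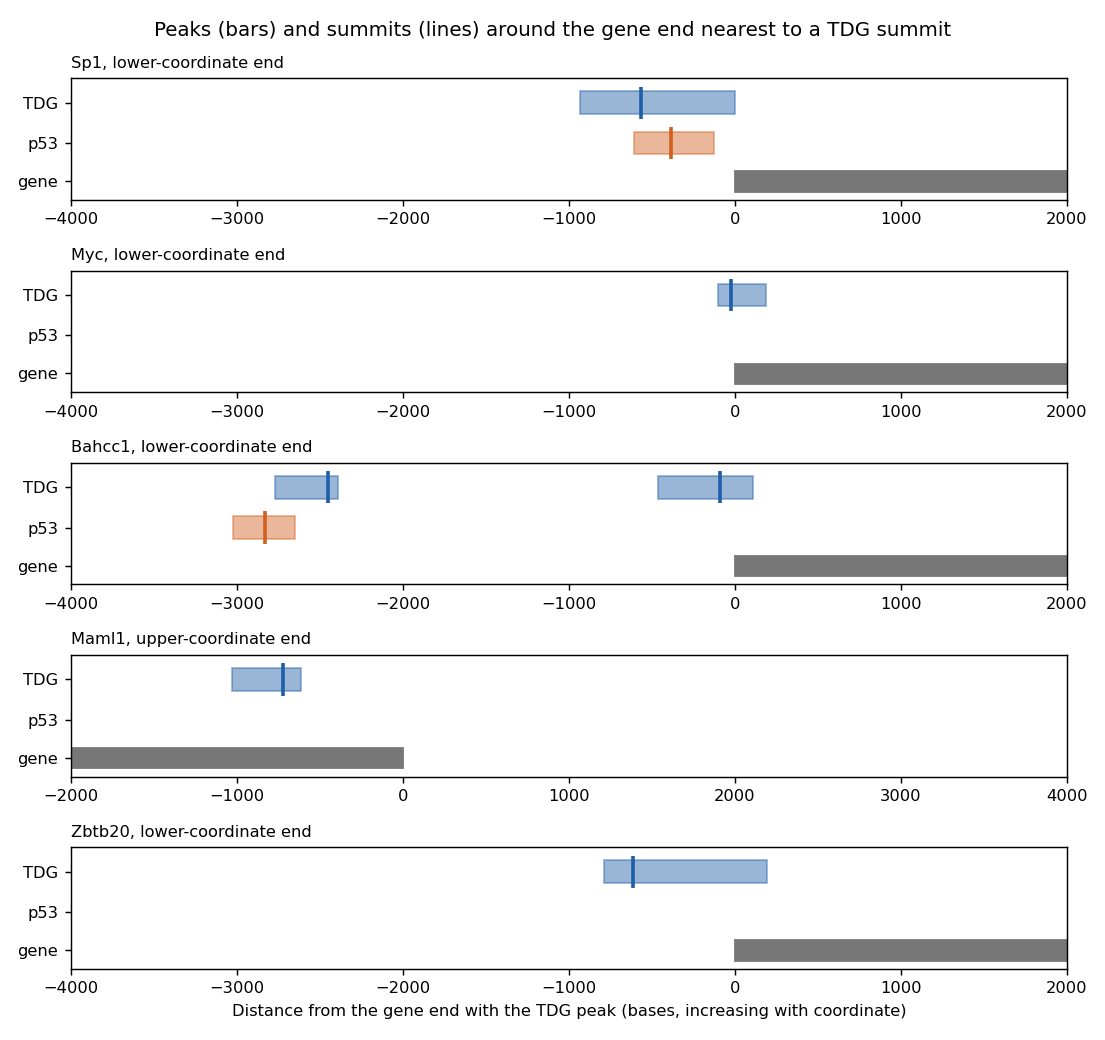
TDG peaks (blue) and p53 peaks (orange) as bars with their summits as lines, plotted by distance in bases from the gene end (grey bar: gene) that has the TDG summit. Within the span drawn p53 peaks appear only at Sp1 and Bahcc1, with summits 175 and 379 bases from the nearest TDG summit.

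Sp1 (chromosome 15, 102406316 to 102436404) had the highest enrichment of the 5 genes in both lists, counting for TDG the peak at the gene end. Its TDG peak (102405383 to 102406316) reached 9.11-fold with 34 reads at the summit (exact Poisson 95% interval 23.5 to 47.5), place 113 of 3410, a value it shared with other TDG peaks. Its p53 peak (102405709 to 102406192) reached 45.6-fold with 173 reads (interval 148 to 201), place 5 of 126. All such intervals cover counting error only.

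The 2 peaks at Sp1 lay before the annotated start on the plus strand, with the TDG summit 562 bases and the p53 summit 387 bases before it. The TDG peak was 934 bases wide, against a list median of 420, and ended at the first base of the gene. It contained the whole p53 peak, all 484 bases of it, which made up 51.8% of the TDG peak. The TDG summit was 175 bases further from the gene than the p53 summit. Among the 27 genes that met the rule Sp1 was first by p53 enrichment, and first of the 21 with a TDG summit at an end by TDG enrichment.

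Around Sp1 there were 5 more TDG peaks within 100 kb and no further p53 peak. The TDG peaks of the neighbourhood lay at Pfdn5, a prefoldin subunit gene (7.04-fold, 21 bases from its end), at Aaas, which encodes a nuclear pore protein (4.41-fold, 125 bases), and 1340 bases from Sp7, another SP family gene (4.59-fold). The noncoding gene Gm36246 was closer than Aaas, with its end 57 bases away, and closer than Sp7, at 124 bases. The remaining pair lay 112 and 1076 bases from Map3k12, both inside Tarbp2, at 4.27-fold and 5.40-fold. All 5 had lower fold enrichment than the peak at Sp1 itself, which had the highest place of the 6. By reads the 5.40-fold peak equalled it, with 34 at the summit of each. Its local background was 5 reads, against 2.56 at the Sp1 peak. The next p53 summit on chromosome 15 was 4249840 bases away.

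Myc (chromosome 15, 61985341 to 61990361) carried a narrow TDG peak exactly at its lower-coordinate end and its p53 peak was outside the gene. The TDG peak (61985237 to 61985531) reached 6.49-fold with 27 reads (interval 17.8 to 39.3) and was 295 bases wide. Its summit lay 23 bases from the gene end, the shortest such distance of the 5. The p53 peak (62039105 to 62039401) reached 13.4-fold with 50 reads (interval 37.1 to 65.9), place 65 of 126 and so near the middle of its list.

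The p53 summit lay 48855 bases above the upper end of Myc, inside the noncoding gene Pvt1 and 1230 bases from the lower end of Pvt1. Pvt1 is the long noncoding RNA gene next to Myc, and a p53-responsive Pvt1 transcript is known in mouse cells. The only other TDG peak within 100 kb (62079243 to 62079779, 6.25-fold, 23 reads) also lay inside Pvt1, 40146 bases above the p53 summit and 89001 bases above Myc. The p53 summit thus stood between a TDG peak 53898 bases below it at Myc and one 40146 bases above it, with no overlap. Myc was the nearest protein-coding gene, but with all annotated genes taken into account the p53 peak went to Pvt1 and Myc no longer met the rule.

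Zbtb20 (chromosome 16, 42875689 to 43634392) is the longest of the 5 genes at 758704 bases, and its peaks lay far apart, TDG just outside one end and p53 inside the gene. The TDG peak (42874901 to 42875884) reached 8.59-fold with 32 reads (interval 21.9 to 45.2), place 175 in its list, and with 984 bases it was the widest peak at an end of the 5 genes. Its summit lay 613 bases below the lower-coordinate end of Zbtb20 and inside 4932412D23Rik. The p53 peak (43574123 to 43574410) reached 11.5-fold with 57 reads (interval 43.2 to 73.9), place 73 of 126 and the lowest of the 5 genes.

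At Zbtb20 the p53 summit lay inside the gene, 60131 bases from its upper-coordinate end and 699185 bases from the TDG summit at the other end. The nearest protein-coding gene end was that of Tigit, an immune receptor gene, at 51876 bases, so Zbtb20 qualified because it held the summit. No other peak of either list lay inside Zbtb20 or within 100 kb of it. The TDG summit nearest to this p53 summit was 315673 bases above it, outside that distance. By TDG enrichment at a gene end Zbtb20 was second among the 21 genes, while by p53 enrichment it was in place 18 among the 27.

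Maml1 (chromosome 11, 50255634 to 50293131, minus strand) had TDG at its start and p53 beyond its other end. The TDG peak (50292099 to 50292519) reached 6.06-fold with 26 reads (interval 17.0 to 38.1), place 1394 of 3410. Its summit lay 75 bases before the RefSeq start used above and 720 bases inside the outermost annotated end of the gene. The p53 peak (50252232 to 50252607) reached 19.7-fold with 74 reads (interval 58.1 to 92.9), place 37 of 126. That p53 summit lay 3253 bases below the lower-coordinate end, which on the minus strand is past the end of the gene, and no annotated gene held it.

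The TDG and p53 summits of Maml1 were 40030 bases apart, with the gene body between them. A nearer TDG summit lay 27460 bases below the p53 summit, at 4.87-fold and 414 bases from the end of Mgat4b, a glycosyltransferase gene. Other TDG peaks within 100 kb lay 133 bases from Canx, which encodes the chaperone calnexin (5.83-fold), 2284 bases (4.32-fold) and 7206 bases (5.24-fold) from Sqstm1, the gene of the autophagy receptor p62, and inside Hnrnph1, the gene of an RNA-binding protein, 3018 bases from its end (6.64-fold). Noncoding genes lay closer to some of these summits. Gm36556 held the summit near Mgat4b, 300 bases from its end, and lay 693 bases from the 5.24-fold peak. Gm46280 held the summit near Canx, 54 bases from its end. The peak in Hnrnph1 was the highest of the 6 TDG peaks, so at Maml1 the member's own peak was not the strongest of its neighbourhood. The next p53 summit was 526569 bases away, the shortest such distance of the 5 genes.

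Bahcc1 (chromosome 11, 120232870 to 120292297, plus strand) had the most TDG peaks nearby, 9 within 100 kb, with 1 p53 peak. The TDG peak at its start (120232406 to 120232980) reached 6.51-fold with 24 reads (interval 15.4 to 35.7), place 975 of 3410, with its summit 87 bases before the outermost annotated end. The p53 peak (120229844 to 120230221) reached 41.7-fold with 158 reads (interval 134 to 185), place 8 of 126. It lay 2832 bases before the gene.

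The TDG peak that overlapped p53 at Bahcc1 was a different and weaker one. It (120230101 to 120230478) reached 4.95-fold with 18 reads (interval 10.7 to 28.4) and took place 2543 of 3410. The overlap was 121 bases, 32.0% of either peak, each of which was 378 bases wide. The TDG summit was 379 bases closer to Bahcc1 than the p53 summit and lay outside the p53 peak. Both summits lay inside the noncoding gene 2900052L18Rik, which is transcribed from the minus strand next to Bahcc1, 1200 bases (TDG) and 1579 bases (p53) from its nearer end. With all annotated genes taken into account this p53 peak went to 2900052L18Rik, and Bahcc1 no longer met the rule.

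Of the other 7 TDG peaks around Bahcc1, 1 lay inside the gene (6.93-fold, 20183 bases from its nearer end). The highest (9.37-fold, 35 reads, place 92 of 3410) lay 42892 bases below the gene and 122 bases from the noncoding gene 2810410L24Rik. The rest included peaks 8895 bases below Bahcc1 (4.82-fold) and 13058 bases above it (5.21-fold). Others lay 28 bases from the amino acid transporter gene Slc38a10 (3.76-fold) and 4263 bases from the gamma-actin gene Actg1 (5.21-fold). The last lay 335 bases from Faap100, a Fanconi anaemia complex gene (4.78-fold). Noncoding genes were closer to the 4.82-fold peak (2900052L18Rik, 1554 bases) and to the peak near Actg1 (0610009L18Rik, 1568 bases).

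**Figure D2:**
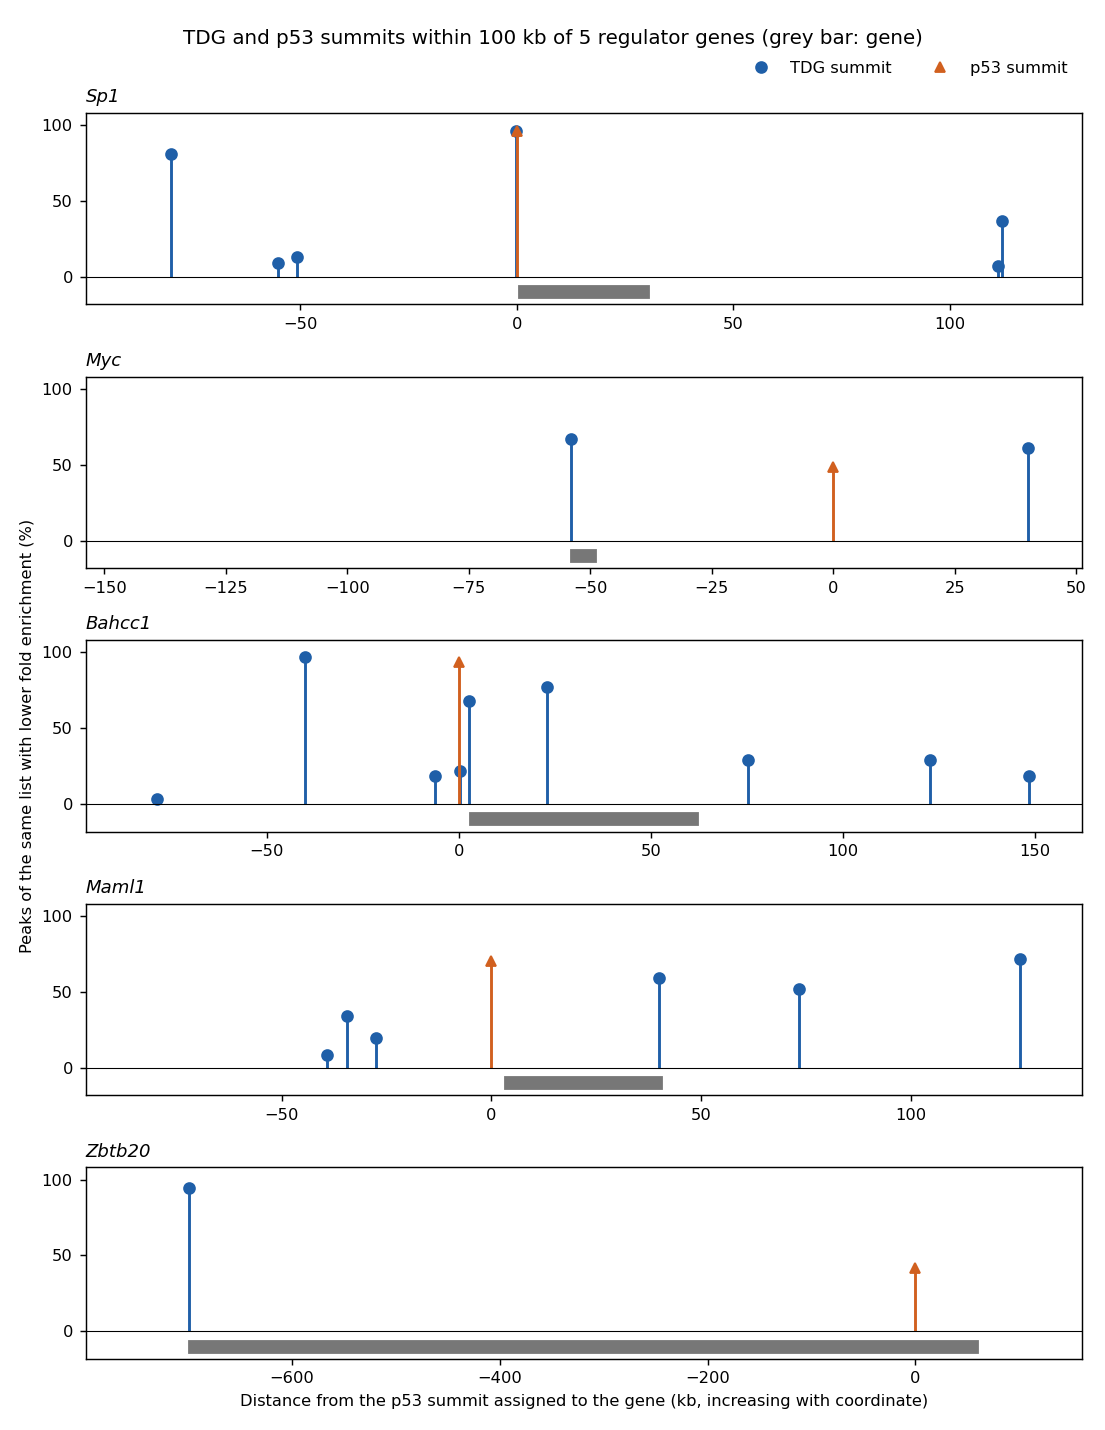
TDG summits (blue circles) and p53 summits (orange triangles) in and within 100 kb of each gene (grey bar), by distance in kb from the p53 summit assigned to the gene. Height is the percentage of peaks in the same list with a lower fold enrichment. Each gene has 1 p53 summit, with 6 TDG summits at Sp1, 2 at Myc, 9 at Bahcc1, 6 at Maml1 and 1 at Zbtb20.

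In all, 24 TDG peaks and 5 p53 peaks lay in the 5 genes or within 100 kb of them. The TDG peaks ranged from 3.76-fold to 9.37-fold with 17 to 35 reads at the summit, and 13 of the 24 were below the list median. Of these 24, 5 were no more than 1 kb from an end of one of the 5 genes and another 7 within 1 kb of an end of some other protein-coding gene. The 5 p53 peaks ranged from 11.5-fold to 45.6-fold with 50 to 173 reads. Of all protein-coding genes, 41.3% had at least 1 TDG summit in this range and 2.10% at least 1 p53 summit.

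The number of TDG peaks nearby differed among the 5 genes. Each count covers the gene and 100 kb on either side, so longer genes have a wider span. Gene length ran from 5021 bases at Myc to 758704 bases at Zbtb20, and neither counts nor shares were adjusted for it. At least 9, as at Bahcc1, were found at 0.471% of all protein-coding genes and at 0.746% of the 1609 on chromosome 11. At least 6, as at Sp1 and Maml1, were found at 1.97% of all genes, at 7.73% of the 776 on chromosome 15 and at 5.59% on chromosome 11. Myc, with 2, and Zbtb20, with 1, were matched or exceeded by 20.7% and 41.3% of all genes. On their own chromosomes these shares were 44.97% on chromosome 15 for Myc and 59.8% of the 679 genes on chromosome 16 for Zbtb20. All 5 genes had at least 1 TDG peak because they were chosen for TDG at an end, so the shares over all genes are not a like comparison. Over the 2689 genes with a TDG summit at an end the median was 2 (quartiles 1 and 3), with Myc at the median and Zbtb20 below it. The share of those genes with at least 6 or at least 9 was not computed. Over all protein-coding genes the median was 0.

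**Figure D3:**
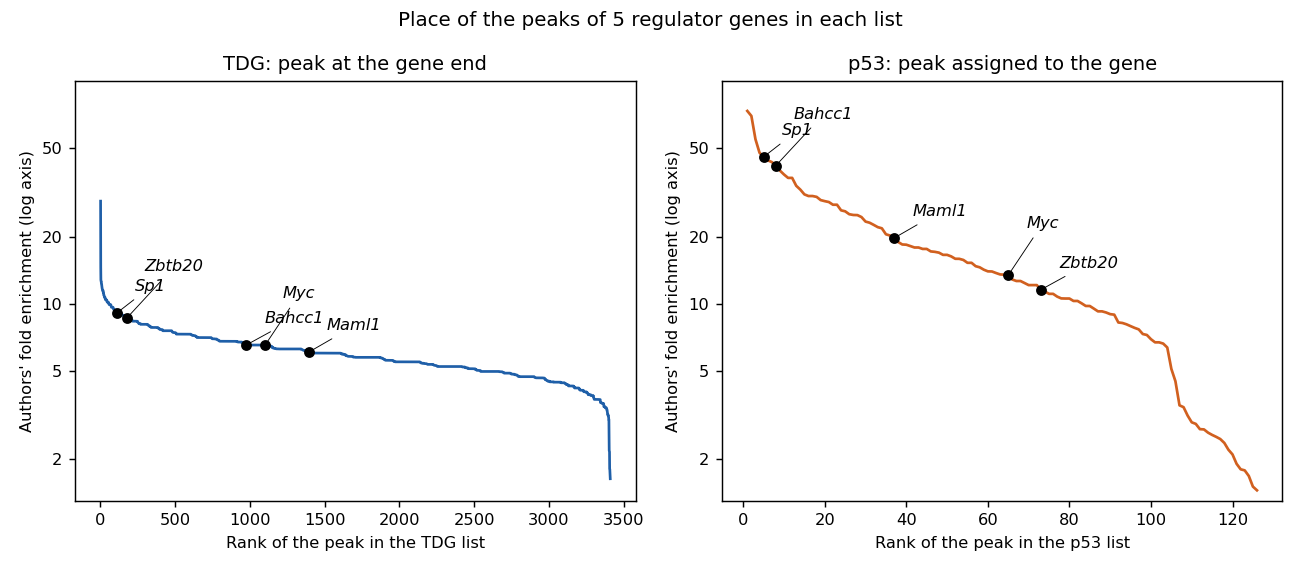
All TDG peaks (left) and all p53 peaks (right) ordered by the authors' fold enrichment on a log axis, with the TDG peak at the gene end and the p53 peak assigned to each of the 5 genes as black points. Sp1 is the highest of the 5 in both lists, while Zbtb20 is second of them in the TDG list and last in the p53 list.

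The order of the 5 genes differed between the lists. By TDG enrichment at the gene end it was Sp1, Zbtb20, Bahcc1, Myc and Maml1. By p53 enrichment it was Sp1, Bahcc1, Maml1, Myc and Zbtb20. These orders are by fold, which also depends on the local background, and reads at the summit gave another order. Bahcc1 had 24 TDG reads, fewer than Myc (27) and Maml1 (26). Zbtb20 had 57 p53 reads, more than Myc (50). The intervals are on reads and do not measure the error of the fold. The read intervals of all 5 TDG summits overlapped one another, so by reads they were not separated beyond counting error. In the p53 list the intervals of Sp1 and Bahcc1 overlapped each other and lay above those of Maml1, Myc and Zbtb20, which overlapped among themselves.

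The gap from the p53 summit to the nearest TDG summit also set Sp1 and Bahcc1 apart. It was 175 bases at Sp1 and 379 bases at Bahcc1, against 27460 at Maml1, 40146 at Myc and 315673 at Zbtb20. The gap at Bahcc1 rested on a TDG peak below the list median, and with only TDG peaks at or above that median it was 2745 bases, while the gap at Sp1 stayed at 175. The median gap of the 118 p53 peaks on placed chromosomes was 70264 bases (quartiles 18150 and 239978), and 15 of these had a TDG summit within 1 kb. By this gap Sp1 was in place 7 and Bahcc1 in place 11, and Zbtb20 lay above the upper quartile. Places 1, 2 and 3 were held by peaks in regions of high background. Outside such regions the median gap of 103 peaks was 102215 bases, and 12 had a TDG summit within 1 kb. On placed chromosomes and outside regions of high background, 7 p53 peaks overlapped a TDG peak, those of Sp1 and Bahcc1 among them. The gaps of the others were 58 bases at Trp53inp1, 63 at Cdkn1a, 113 at Ccng1, 229 at Sfi1 and 270 at Btg2. Bahcc1 thus had the widest gap of the 7, and Btg2 the smallest shared part, 20.2% of its p53 peak.

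**Figure D4:**
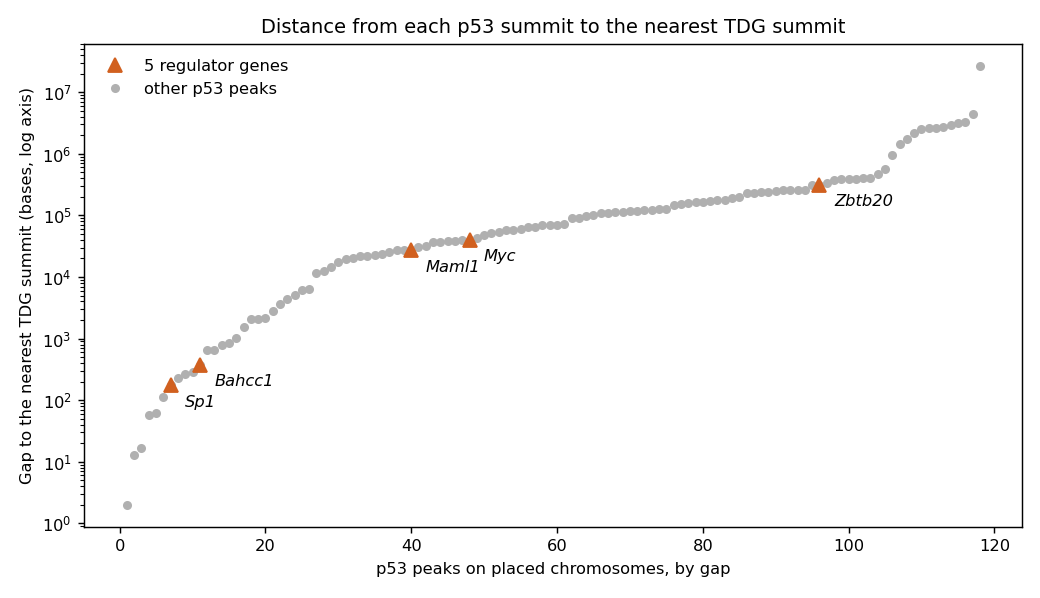
Gap in bases (log axis) from each of the 118 p53 summits on placed chromosomes to the nearest TDG summit, in order of the gap. The triangles are the 5 regulator genes: Sp1 (175) and Bahcc1 (379) lie among the short gaps, Maml1 (27460) and Myc (40146) near the middle and Zbtb20 (315673) among the long ones.

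The families of the 5 regulators were then described by the same criteria, from lists that include the members. Among 133 distinct genes in 6 lists, p53 was assigned to 7, the 5 members, Sp3 and Btg2. Without the members, which were chosen for having p53, these were 2 of 128 list genes, against 0.512% of all protein-coding genes. Btg2 came only from the list of known p53 targets, whose genes were listed for their link to p53. The 2 are therefore not a like comparison with that share, and outside that list Sp3 was the only one. Sp3, an SP factor that binds the same GC boxes as Sp1, was the gene nearest to a p53 peak (chromosome 2, 72995622 to 72995952) of 21.8-fold, 15316 bases from its end. Sp3 had no TDG peak within 100 kb. At Btg2, an antiproliferative cofactor and known p53 target, the p53 peak (chromosome 1, 134079271 to 134079577) reached 15.9-fold and the TDG peak at the gene end 6.66-fold.

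TDG at a gene end was more frequent in the family lists than p53, as it was over all protein-coding genes (12.3% against 0.512%). Without the 5 members, TDG at a gene end was found at 31 of 128 list genes. The MYC network had it at 7 of 12 genes (58.3%), the SP and KLF factors at 7 of 25 (28%), the ZBTB factors at 11 of 44 (25%), the Notch pathway at 5 of 30 (16.7%), the transcription regulators known as p53 targets at 1 of 10 and the BAH domain proteins at 0 of 10. The share over all protein-coding genes was 12.3%, and no test was made of any list. Zbtb1 and Zbtb25 shared 1 TDG peak (3.55-fold), so these genes are not all separate peaks. With a −log10 q of at least 5, members included, the ZBTB list fell from 12 genes to 9 and the MYC network from 8 to 7. The other lists did not change, and the share over all genes was 11%.

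In the MYC network the TDG peaks lay at Max, the obligate partner of Myc (6.42-fold, 66 bases from the gene end), at Mxd1 (7.01-fold), Mxd3 (6.77-fold), Mxd4 (7.18-fold) and Mnt (3.86-fold), whose products compete with Myc for Max, and at Mlx (5.99-fold) and Mlxip (7.03-fold), which form a parallel, nutrient-sensing branch. Mycn, Mycl, Mxi1, Mga and Mlxipl had none at an end. The median enrichment of the 8 network genes with a peak, Myc included, was 6.63-fold, against 5.99-fold over all 2689 genes with TDG at an end (quartiles 5.16 and 6.93).

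Among the SP and KLF factors the highest TDG peaks at gene ends were at Klf13 (10.4-fold), Sp1 (9.11-fold), Sp4 (8.72-fold), and Klf10 and Klf16 (each 7.81-fold), with a list median of 7.81-fold. The ZBTB factors were led by Zbtb21 (9.11-fold), Zbtb20 (8.59-fold), Zbtb18 (6.49-fold) and Zbtb5 (5.49-fold), and their list median was 5.15-fold. In the Notch pathway the gamma-secretase subunit gene Aph1a (7.55-fold), the protease gene Adam17 (6.25-fold), Maml1 (6.06-fold) and the ligand gene Jag1 (5.73-fold) came first, and the list median was 5.89-fold. Neither of the other Mastermind-like genes, Maml2 and Maml3, had a TDG peak at an end, nor did the receptor genes Notch1 to Notch4. The Notch target Hes1 had its TDG summit 1052 bases from an end, just past the limit.

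**Figure D5:**
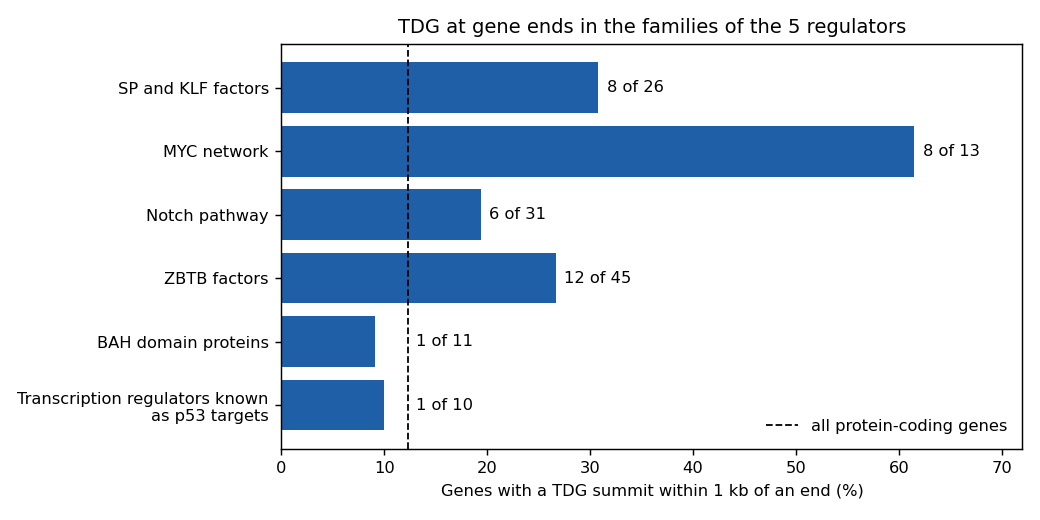
Percentage of genes in each family or pathway list with a TDG summit within 1 kb of a gene end, members included, with the counts beside the bars and the share over all protein-coding genes (12.3%) as a dashed line. The MYC network is highest at 8 of 13 genes, and the BAH domain proteins have Bahcc1 alone.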

How the data were processed

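ChIP-seq of B16 cells with HA-tagged Tdg gave 2 deposited peak lists, 1 per library, the HA antibody (TDG) and the p53 antibody. Trim Galore, Bowtie2, Picard, deepTools, MACS2, ChIPseeker and the build mm10 appear in the labels, per the submitters' processing notes. Versions, the control and the calling threshold are not given in the sources used. The authors deposited a ratio (fold enrichment), −log10 p and −log10 q at each summit, positions in bases and a score, which in all 3410 TDG and 126 p53 peaks was the −log10 q multiplied by 10 and rounded down. Fold enrichment depends on the control library and on depth.

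With Python 3.11.15 and scipy 1.17.1, reads at the summit and local background were recovered from the fold and Poisson p formulas of MACS2, checked on simulated data. Summits were whole reads, within 0.05, for 100% of TDG and 99.2% of p53 peaks. The read scale and the value at each peak were picked to come closest to whole reads, so these shares are no independent check. The lists give no library totals. Intervals are exact Poisson 95%. Genes and promoter windows came from RefSeq tables of GRCm38.p6, the assembly that mm10 is built on. Of the 5 genes, 4 matched a promoter window, which also gave the strand.

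The 5 genes and the 6 family lists were chosen with earlier results of these data known. Named besides the 5 were list genes assigned a p53 peak, up to 4 genes per list by TDG enrichment, genes nearest to a peak within 100 kb, and genes at overlapping peaks outside regions of high background. All 7 MYC network genes with TDG at a gene end, Myc not counted, were picked for naming with their values already known. The same holds for Klf16, Hes1, Nfe2l2, Pdcl, Cd81, the noncoding genes and the list genes without a peak. No test was run, since each group is 1 library. The alternatives tried were distances of 50 and 200 kb, a minimum −log10 q of 5, a minimum fold at the list median, a 3 kb window, p53 within 10 kb, all annotated genes and other definitions of overlap.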

Additional observations from a re-analysis of the deposited data

How the results depend on the processing

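With 1 library per group there is no replicate spread, and weak TDG peaks rest on as few as 17 reads at the summit. The 24 TDG peaks within 100 kb became 14 within 50 kb and 11 when a minimum fold at the list median was set. At 200 kb there were 34, and 21 with a −log10 q of at least 5. The 5 p53 peaks became 3 at or above the median and otherwise stayed 5. Of the 5 genes, 3 met the rule when the p53 summit had to lie within 10 kb of a gene end (Sp1, Bahcc1 and Maml1), 3 with all annotated genes (Sp1, Maml1 and Zbtb20) and 3 at or above the median fold (Sp1, Bahcc1 and Maml1), where the genes meeting the rule fell to 7, against 27. The other alternatives of the rule left 19 to 32 genes. Of the 2 overlaps, 1 (Sp1) was left when 50% of the narrower peak had to be shared or the p53 summit had to lie in the TDG peak. Over all p53 peaks 16 overlapped a TDG peak, and 7 did without regions of high background. Gaps with only TDG peaks at or above the median fold were alternatives added after the data were seen. The signed gap (TDG minus p53) turned to 40030 bases at Maml1, against -27460, and to -699185 at Zbtb20, against 315673. In each case a nearer peak below the median, on the other side, was dropped. At Zbtb20 that peak was only just below the cut, at 5.734-fold against a median of 5.735-fold. At Bahcc1 the signed gap became 2745 bases, against 379, because the overlapping TDG peak was dropped. With the 3 kb window the BAH domain list had 2 genes with TDG at an end and the p53 target list 2, against 1 each. In total 39 of 54 recomputed values were the same or within 1.5 times. No paired analysis was possible because each group has 1 sample.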
